A study of Homo sapiens with 6 samples.

Results

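The ligands and receptors of the tumor necrosis factor (TNF) superfamily were examined in OVCAR3 cells, an established epithelial ovarian cancer line, after knockdown of NUF2, a subunit of the NDC80 kinetochore complex that binds spindle microtubules. Members were taken by name, as genes whose symbol begins with TNFSF or TNFRSF and a number, together with TNF, LTA, LTB, LTBR, CD40, CD40LG, CD27, CD70, FAS, FASLG, NGFR, EDA, EDAR, EDA2R and RELT. This gave 48 of the 19973 genes listed, of which 19 were ligands and 29 were receptors. RNA-seq had been carried out on 3 libraries from cells transfected with shNC, a control hairpin, whose genotype is labelled WT, and on 3 libraries from cells transfected with shNUF2, a hairpin against NUF2, labelled as a NUF2 knockdown. The NUF2 hairpin was carried by a plasmid with a puromycin resistance gene, each group rests on 1 hairpin, and the study established stable silenced OVCAR3 cells, although whether the sequenced cells were that stable line is not stated. The sources used here do not say that the libraries came from separate cultures, so the p-values below measure the spread between these libraries, which may be technical. Total reads on genes ranged from 13057534 to 16995452 per library.

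TNF superfamily ligands are mostly trimers anchored in the membrane that can be cut off as soluble cytokines, and they act by clustering receptors with cysteine-rich repeats. Receptors with a cytoplasmic death domain can recruit TRADD or FADD and lead to caspase activation, whereas receptors without it bind TRAF adaptors directly and feed into NF-kB and MAP kinase signaling. Decoy receptors bind ligand without a working cytoplasmic signal. In epithelial tumors the family is best known for killing by TRAIL and FAS ligand and for inflammatory signaling by TNF itself.

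Reads on NUF2 fell, from 903, 1096 and 1092 in the shNC libraries to 281, 290 and 384 in the shNUF2 libraries, a log2 fold change of -1.51 with a standard error (SE) of 0.08 (edgeR quasi-likelihood test, adjusted p = 2.17e-15). Of 8 epithelial and ovarian markers, the keratins were abundant, with mean levels in the shNC and shNUF2 groups of 169 and 142 FPKM (reads scaled by gene length and by the total of counted reads) for KRT7 and of 49.5 and 99.2 FPKM for KRT8. EPCAM was at 1.41 and 2.21 FPKM, PAX8 at 1.39 and 2.11 FPKM, MUC16 at 1.12 and 0.651 FPKM, and CDH1 at 0.23 and 0.136 FPKM, and WT1 had at most 7 reads in any library, so several markers often used for this line were low or nearly absent. The cells are called OVCAR3 here as labelled, and these markers leave the identity of the line in doubt, which was not tested. Since many TNF superfamily genes are typical of leukocytes, 9 leukocyte markers were also read. CD3D and MS4A1 were at 0 reads in all libraries, PTPRC had 0, 1 and 0 reads in the shNC group and 6, 11 and 6 reads in the shNUF2 group, and the summed level of the list was 0.824 to 1.54 FPKM and 1.82 to 2.9 FPKM, respectively. The summed level of 7 fibroblast markers was 9.44 to 10.1 FPKM with shNC and 7.36 to 8.23 FPKM with shNUF2. Most of it was COL1A1, with means of 9.19 and 6.84 FPKM. DCN of the same list moved the other way (log2 fold change 1.22, SE 0.20, adjusted p = 7e-06), and COL3A1 had 1, 0 and 2 reads against 15, 15 and 5. The summed level of 5 endothelial markers was 0.306 to 0.454 FPKM and 0.749 to 0.994 FPKM. Of these, CDH5 rose (1, 1 and 4 against 15, 19 and 27 reads, log2 fold change 3.45, SE 0.57, adjusted p = 7.15e-06), as did TEK (2.70, SE 0.55, adjusted p = 0.000116), while PECAM1 was at -0.02 (SE 0.30, adjusted p = 0.966). The part of these markers in the results below was not tested. In RNA from a whole culture, fewer cells of a type and less RNA per cell cannot be told apart.

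Among the members that rose were a ligand and its receptor. TNFSF9, the ligand of CD137, and TNFRSF9, which is CD137 itself, were both higher in all 3 shNUF2 libraries. TNFSF9 is also the first of 3 ligand genes that lie next to each other on chromosome 19, TNFSF9, CD70 and TNFSF14, over 140 kb that contain no other listed gene, and all 3 were higher with shNUF2. The RefSeq promoter windows of TNFSF9, TNFSF14 and TNFRSF9, 300 bases from 250 before to 50 after the RefSeq start on GRCh38.p14, are printed here because these genes moved together. They are written 5′ to 3′ on the gene's strand, and capitals mark matches to the NF-kB consensus, which read GGGGGCTCCCC in TNFSF14 and GGGAATTTCCC in TNFRSF9, and to the AP-1 motif TGANTCA. Both motifs were searched on both strands. The windows lie at chr19:6530776-6531075 (+ strand), chr19:6670111-6670410 (- strand) and chr1:7940790-7941089 (- strand). For TNFSF14 and TNFRSF9 the window lies inside the gene as the files list it, since the listed gene reaches further upstream.
TNFSF9: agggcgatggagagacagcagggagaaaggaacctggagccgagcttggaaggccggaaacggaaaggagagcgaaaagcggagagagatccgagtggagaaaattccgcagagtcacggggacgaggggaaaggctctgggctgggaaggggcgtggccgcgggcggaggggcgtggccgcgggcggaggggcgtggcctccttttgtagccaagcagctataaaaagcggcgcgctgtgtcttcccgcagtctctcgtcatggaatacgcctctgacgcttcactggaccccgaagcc
TNFSF14: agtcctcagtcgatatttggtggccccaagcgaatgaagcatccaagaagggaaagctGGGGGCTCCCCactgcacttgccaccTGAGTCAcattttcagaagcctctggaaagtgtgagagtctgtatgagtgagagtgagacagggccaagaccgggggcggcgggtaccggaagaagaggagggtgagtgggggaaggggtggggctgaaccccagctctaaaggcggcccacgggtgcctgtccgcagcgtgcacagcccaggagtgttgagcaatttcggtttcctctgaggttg
TNFRSF9: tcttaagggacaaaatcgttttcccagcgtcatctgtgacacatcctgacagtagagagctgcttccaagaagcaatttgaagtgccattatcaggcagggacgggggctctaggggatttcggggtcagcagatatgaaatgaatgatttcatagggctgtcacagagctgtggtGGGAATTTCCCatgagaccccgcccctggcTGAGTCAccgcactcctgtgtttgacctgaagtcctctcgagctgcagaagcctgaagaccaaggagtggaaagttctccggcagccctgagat

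The windows of TNFSF14 and TNFRSF9 each held 2 matches to the NF-kB consensus, which overlap and are printed as a single run of capitals, and 1 match to TGANTCA. The window of TNFSF9 held no match to either, had a GC content of 63.3% and contained 27 CpG dinucleotides, as against 59% and 11 for TNFSF14 and 52.3% and 8 for TNFRSF9. Among all 35116 RefSeq promoter windows of this length, 11.3% held a match to the NF-kB consensus and 7.71% a match to TGANTCA. These shares are over all windows, whereas each member was searched in a single window. Windows were found for 30 of the 48 members, CD70 not among them, so no share over the members is given. Of these 30 windows, 5 held a match to the NF-kB consensus (LTB, TNFSF14, TNFRSF25, TNFRSF14 and TNFRSF9) and 7 a match to TGANTCA. The windows of TNFRSF1B, RELT and TNFRSF11A, which rose past the fold threshold, held neither. A match is a run of letters and not a measured binding site.

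Of the 48 members, 45 had at least 1 read, and 25 had enough reads to be tested. The members together held 9.29 ± 0.295 (SD, n = 3) of every 10000 counted reads with shNC and 13.5 ± 0.299 (SD, n = 3) with shNUF2, and their summed level rose from between 244 and 257 FPKM to between 354 and 371 FPKM, with no overlap between the groups. With the thresholds of the study (log2 fold change beyond 1 in either direction and unadjusted p under 0.05), 8 of the tested members were higher with shNUF2 and 1 was lower. With no filter on low counts the 8 became 13, by CD40, EDA2R, TNF, TNFSF10 and TNFSF15. The upward count over all genes then went from 1212 to 1770. By the same rule with the filter, 9.41% of the 12874 genes in the test were called upward and 4.16% downward. With a Benjamini-Hochberg adjusted p under 0.05 and no fold threshold, 15 members rose, 3 fell and 7 did not pass, against 33.9% of all genes higher and 33.8% lower. The groups did not overlap for 19 members, with shNUF2 on the upper side for 15 and on the lower side for 4, as against 35.2% and 35.4% of all tested genes. The median log2 fold change of the tested members was 0.38, within a range of -1.48 to 2.95, and that of all tested genes was -0.01. A member that is high in only 1 group can enter the test through that group, so these counts describe the tested members and not all 48.

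**Figure D1:**
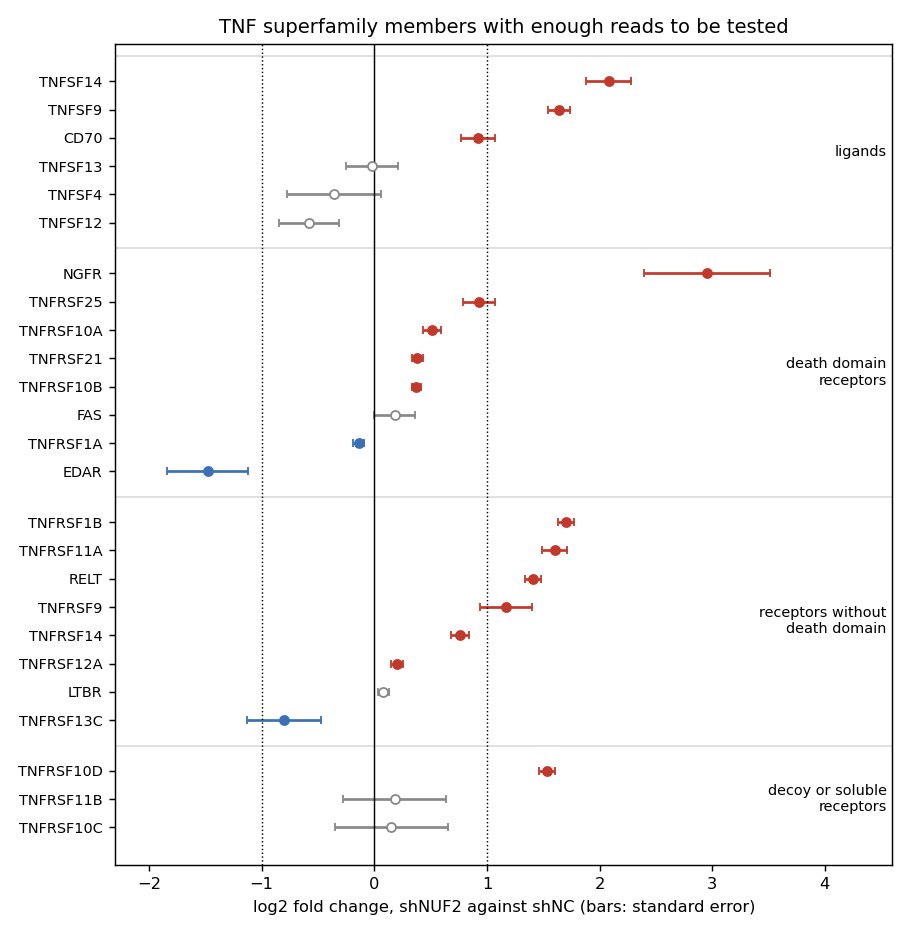
Log2 fold change of each tested member (shNUF2 against shNC, horizontal axis) with its standard error, sorted by role, where filled points passed an adjusted p under 0.05 (red higher, blue lower), open points did not, and dotted lines mark -1 and 1. NGFR, TNFSF14 and TNFRSF1B lie furthest to the right and EDAR lies furthest to the left.

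Among the ligands, 6 of 19 were tested, of which TNFSF14, TNFSF9 and CD70 rose and 3 did not pass the test. The rises were 50% of only 6 genes, against 33.9% of all genes. The summed level of the ligands went from between 16.5 and 19.1 FPKM to between 39.3 and 43.3 FPKM, and TNFSF9 was the largest part of it in every library. TNFSF9 (ENSG00000125657, chr19:6531026-6535924, + strand) encodes the costimulatory ligand of CD137. It had 246, 224 and 219 reads (shNC) against 663, 576 and 653 (shNUF2). This was a level of 9.09 ± 1.43 FPKM (SD, n = 3) and of 27.5 ± 1.65 FPKM (SD, n = 3), with a log2 fold change of 1.64 (SE 0.10, adjusted p = 5.98e-14). All 3 shNUF2 libraries were far above the shNC libraries, and TNFSF9 was the most abundant ligand per gene length in both groups.

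TNFSF14 (ENSG00000125735, chr19:6661253-6670588, - strand), also named LIGHT, binds TNFRSF14 and LTBR. It had 34, 28 and 34 reads (shNC) against 116, 106 and 135 (shNUF2). The level rose from 0.432 ± 0.0665 FPKM to 1.77 ± 0.0789 FPKM (SD, n = 3 each), with a log2 fold change of 2.08 (SE 0.20, adjusted p = 1e-09). The groups were well separated, although even the higher level was a small fraction of that of TNFSF9.

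CD70 (ENSG00000125726, chr19:6583183-6604103, - strand), the ligand of CD27, lies between them. It had 81, 90 and 114 reads (shNC) against 177, 127 and 167 (shNUF2). Its level was 3.96 ± 0.367 FPKM and 7.3 ± 1.02 FPKM (SD, n = 3 each), and the log2 fold change was 0.92 (SE 0.15, adjusted p = 9.11e-06), short of the fold threshold. Without shNUF2 replicate 2, the lowest of its group, the log2 fold change was 1.01. Its receptor CD27 had at most 3 reads in any library.

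The other tested ligands were TNFSF13 (APRIL), TNFSF12 (TWEAK) and TNFSF4 (OX40 ligand). TNFSF13 and TNFSF12 are neighbors on chromosome 17 and were at 1.82 ± 0.478 and 1.65 ± 0.384 FPKM with shNC and at 1.76 ± 0.314 and 1.07 ± 0.0493 FPKM with shNUF2 (SD, n = 3 each). The log2 fold changes were -0.02 (SE 0.23, adjusted p = 0.947) for TNFSF13 and -0.58 (SE 0.27, adjusted p = 0.0608) for TNFSF12. The TNFSF12 libraries did not overlap between groups, with 56, 40 and 50 reads against 27, 28 and 31, and its adjusted p was 0.0404 without shNC replicate 2. TNFSF4 had at most 15 reads in any library and a log2 fold change of -0.36 (SE 0.42, adjusted p = 0.464). The readthrough gene TNFSF12-TNFSF13, which overlaps both of its namesakes on the same strand, was at 0 reads throughout, and how reads on shared exons were assigned is not given in the sources used here.

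The 8 receptors with a death domain were all tested, and 5 rose, 2 fell and FAS did not pass the test. This is 62.5% and 25%, against 33.9% and 33.8% of all genes. The summed level of these receptors was 125 to 130 FPKM with shNC and 150 to 153 FPKM with shNUF2, and most of it was TNFRSF10B, a receptor of TRAIL. TNFRSF10B (ENSG00000120889, chr8:23020133-23069031, - strand) had the highest level of all members. It had 4738, 4986 and 5471 reads (shNC) against 5806, 5144 and 6330 (shNUF2), or 64.9 ± 1.89 and 81.9 ± 2.85 FPKM (SD, n = 3 each). The log2 fold change was 0.37 (SE 0.04, adjusted p = 3.03e-08). The raw reads of the groups overlapped, but after scaling for library size the 3 shNUF2 libraries were all higher. RHOBTB2 overlaps TNFRSF10B on the opposite strand and moved the other way, from between 410 and 577 reads to between 234 and 248 reads.

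TNFRSF10A, the other TRAIL receptor with a death domain, rose from 10.3 ± 0.223 FPKM to 14.3 ± 1.34 FPKM (log2 fold change 0.51, SE 0.08, adjusted p = 4.03e-06). TNFRSF21, known as death receptor DR6, was among the 5 most abundant members, with 1030, 1176 and 1226 reads against 1194, 1295 and 1421 reads. Its level went from 20.4 ± 0.392 FPKM to 25.9 ± 1.76 FPKM (log2 fold change 0.38, SE 0.05, adjusted p = 8.61e-07). TNFRSF25, known as death receptor DR3, rose from 1.69 ± 0.254 FPKM to 3.15 ± 0.206 FPKM (log2 fold change 0.93, SE 0.14, adjusted p = 2.2e-06; SD, n = 3 in each of these groups). The fold change of TNFRSF25 was 1.03 on the log2 scale without shNC replicate 3. TNFRSF25 is overlapped on the opposite strand by ESPN, whose reads went from 280, 283 and 380 to 83, 73 and 102. The kit marked strand, and the strand setting of the counting is not given in the sources used here.

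NGFR (ENSG00000064300, chr17:49495293-49515008, + strand), the low-affinity receptor of neurotrophins, had the largest fold change of the tested members and the lowest mean level. It had 5, 1 and 2 reads (shNC) against 21, 12 and 24 (shNUF2), or 0.0431 ± 0.0373 and 0.323 ± 0.0881 FPKM (SD, n = 3 each). The log2 fold change was 2.95 (SE 0.56, adjusted p = 4.93e-05), and it ranged from 2.56 to 3.80 when each library was left out in turn. The groups did not overlap, but the size of this fold rests on 8 reads in the whole shNC group.

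EDAR (ENSG00000135960, chr2:108894471-108989372, - strand), the ectodysplasin receptor of skin appendage development, was the only tested member past the threshold in the lower direction. It had 72, 50 and 46 reads (shNC) against 31, 9 and 13 (shNUF2). The level fell from 0.828 ± 0.286 FPKM to 0.285 ± 0.193 FPKM (SD, n = 3 each), with a log2 fold change of -1.48 (SE 0.36, adjusted p = 0.000651) that ranged from -2.18 to -1.18 when each library was left out in turn. The lowest shNC library was at 0.612 FPKM and the highest shNUF2 library at 0.508 FPKM, so the groups were separate but close.

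TNFRSF1A (ENSG00000067182, chr12:6328757-6342114, - strand) is the main receptor of soluble TNF. It had 1614, 1700 and 1844 reads (shNC) against 1365, 1283 and 1460 (shNUF2), at 27.6 ± 0.861 and 24.4 ± 0.4 FPKM (SD, n = 3 each). The log2 fold change was -0.14 (SE 0.05, adjusted p = 0.0149), so the fall was small, and it did not pass without shNC replicate 1 (adjusted p = 0.0662) or without shNUF2 replicate 3 (adjusted p = 0.0614). FAS, the receptor of FAS ligand, was at 1.04 ± 0.206 and 1.15 ± 0.144 FPKM, with a log2 fold change of 0.18 (SE 0.18, adjusted p = 0.399) and overlapping groups.

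**Figure D2:**
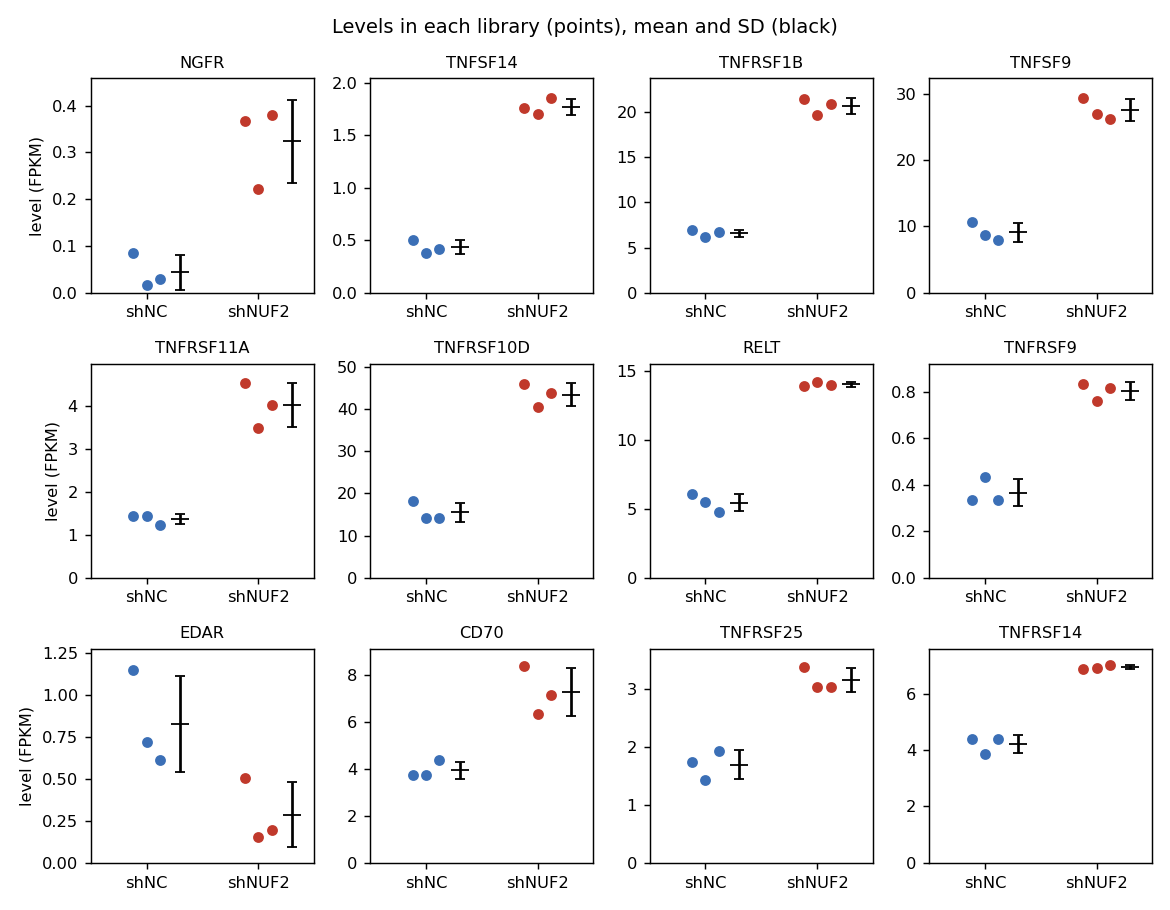
Level in FPKM (vertical axes, each from 0) in every library for 12 members, with shNC in blue and shNUF2 in red and the mean ± SD of 3 libraries in black. The panels show the members past the fold threshold, with CD70, TNFRSF25 and TNFRSF14 added, and were thus chosen after the values were seen. In each of the 12 panels the groups do not overlap, EDAR being the only one in which shNC is higher. TNFRSF1A, TNFRSF13C and TNFSF12, also lower without overlap, are not shown. Of all tested genes, 35.2% had every shNUF2 library above every shNC library and 35.4% below.

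Of the 17 receptors without a death domain, 8 were tested, and 6 rose, 1 fell and LTBR did not pass the test, or 75% and 12.5% against 33.9% and 33.8% of all genes. Of the tested genes of this group, 4 (50%, against 9.41% of all genes) passed the fold threshold upward, namely TNFRSF1B, TNFRSF11A, RELT and TNFRSF9. TNFRSF1B (ENSG00000028137, chr1:12166991-12209228, + strand) encodes the TNF receptor that responds best to membrane-bound TNF. It had 369, 363 and 429 reads (shNC) against 1123, 972 and 1203 (shNUF2). The level rose from 6.57 ± 0.411 FPKM to 20.7 ± 0.935 FPKM (SD, n = 3 each), with a log2 fold change of 1.70 (SE 0.07, adjusted p = 2.32e-17), the smallest p among the members. As TNFRSF1A fell slightly, the ratio of TNFRSF1B to TNFRSF1A in FPKM went from 0.242, 0.226 and 0.247 in the shNC libraries to 0.872, 0.803 and 0.873 in the shNUF2 libraries. The TNF receptor genes were thus far apart in the control cells and close to each other in the knockdown cells, with no overlap of the ratio between the groups.

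TNFRSF11A (ENSG00000141655, chr18:62325287-62391288, + strand) encodes RANK, the receptor of RANK ligand in bone and mammary gland. It had 182, 202 and 190 reads (shNC) against 564, 411 and 554 (shNUF2), or 1.37 ± 0.109 and 4.03 ± 0.523 FPKM (SD, n = 3 each). The log2 fold change was 1.60 (SE 0.11, adjusted p = 5.98e-13). Its ligand gene, TNFSF11, had at most 3 reads in any library.

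RELT (ENSG00000054967, chr11:73376399-73397474, + strand) is a receptor named for its expression in lymphoid tissue. It had 528, 533 and 506 reads (shNC) against 1186, 1148 and 1317 (shNUF2). The level went from 5.45 ± 0.618 FPKM to 14 ± 0.164 FPKM (SD, n = 3 each), with a log2 fold change of 1.41 (SE 0.07, adjusted p = 8.56e-16). The shNUF2 libraries lay close to each other, from 13.9 to 14.2 FPKM, well above the highest shNC library at 6.05 FPKM.

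TNFRSF9 (ENSG00000049249, chr1:7915871-7943165, - strand), a costimulatory receptor of activated T cells, was low in both groups. It had 30, 43 and 36 reads (shNC) against 73, 63 and 79 (shNUF2), or 0.366 ± 0.056 and 0.803 ± 0.0385 FPKM (SD, n = 3 each). The log2 fold change was 1.17 (SE 0.23, adjusted p = 6.47e-05). Its ligand TNFSF9 was at 25.3 ± 5.98 times the receptor's FPKM with shNC and at 34.3 ± 1.9 times with shNUF2 (SD, n = 3 each), so the ligand was by far the more abundant transcript of this pair in every library.

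TNFRSF12A, the receptor of TWEAK, was the second most abundant member. It had 1403, 1708 and 1725 reads (shNC) against 1610, 1517 and 1733 (shNUF2), at 57.3 ± 2.73 and 64.2 ± 0.854 FPKM (SD, n = 3 each), with a log2 fold change of 0.20 (SE 0.05, adjusted p = 0.000781). TNFRSF14, a receptor of LIGHT and of BTLA, rose from 4.21 ± 0.311 FPKM to 6.93 ± 0.0634 FPKM (log2 fold change 0.76, SE 0.08, adjusted p = 3.3e-09). LTBR, the lymphotoxin beta receptor and the other receptor of LIGHT, was at 12.9 ± 0.58 and 13.3 ± 0.305 FPKM (log2 fold change 0.08, SE 0.05, adjusted p = 0.179). LTBR is overlapped on the opposite strand by SCNN1A, which went from between 399 and 445 reads to between 243 and 251 reads. Among the LIGHT genes, therefore, the ligand and TNFRSF14 rose, while LTBR, the more abundant receptor, did not pass the test.

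TNFRSF13C, the BAFF receptor of B cells, had 24, 38 and 36 reads (shNC) against 17, 11 and 21 (shNUF2). The level was 0.53 ± 0.0921 and 0.293 ± 0.0707 FPKM (SD, n = 3 each) with a log2 fold change of -0.80 (SE 0.33, adjusted p = 0.0353). This was the least stable of the 3 falls. The adjusted p was 0.0693 with DESeq2, 0.0523 with the replicate number as a block, and between 0.0567 and 0.134 without shNC replicate 2, shNC replicate 3, shNUF2 replicate 1 or shNUF2 replicate 2.

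Of the 4 decoy or soluble receptors, 3 were tested and TNFRSF10D rose, a share of 33.3% that is close to the 33.9% of all genes. TNFRSF10D (ENSG00000173530, chr8:23135588-23164027, - strand) is a TRAIL receptor with a truncated death domain. It had 905, 786 and 847 reads (shNC) against 2245, 1867 and 2359 (shNUF2). The level rose from 15.5 ± 2.31 FPKM to 43.4 ± 2.81 FPKM (SD, n = 3 each), with a log2 fold change of 1.53 (SE 0.07, adjusted p = 3.35e-16). The lowest shNUF2 library, at 40.4 FPKM, was above the highest shNC library, at 18.1 FPKM.

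TNFRSF10D shares a stretch of 205 kb on chromosome 8 with the other TRAIL receptor genes, TNFRSF10A, TNFRSF10B and TNFRSF10C. Their summed level was 91.1 ± 4.03 FPKM with shNC and 140 ± 5.83 FPKM with shNUF2 (SD, n = 3 each). TNFRSF10D made up 19, 16 and 15.9% of this sum in the shNC libraries and 31.6, 30.2 and 31.3% in the shNUF2 libraries. TNFRSF10B made up 71.3% ± 1.18 and 58.5% ± 0.797 (SD, n = 3 each), and TNFRSF10A 11.3% ± 0.417 and 10.2% ± 0.928. The TRAIL receptors with a death domain thus rose in level while the decoy took a larger share in every shNUF2 library. The other decoy of this cluster, TNFRSF10C, had between 3 and 17 reads and a log2 fold change of 0.15 (SE 0.50, adjusted p = 0.803). These genes are close paralogs, and how reads that fit several of them were counted is not given in the sources used here.

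**Figure D3:**
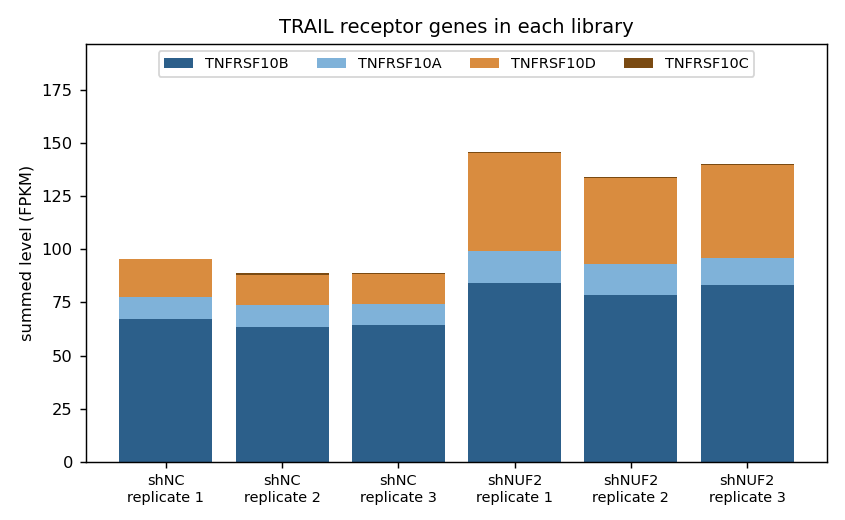
Summed level of the TRAIL receptor genes in FPKM (vertical axis, from 0) in each of the 6 libraries, stacked by gene. The TNFRSF10D part is between 14.1 and 18.1 FPKM in the shNC libraries and between 40.4 and 46 FPKM in the shNUF2 libraries, and TNFRSF10C is too thin to see.

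TNFRSF11B, the soluble decoy of RANK ligand known as osteoprotegerin, had 19, 9 and 9 reads (shNC) against 15, 13 and 9 (shNUF2) (log2 fold change 0.18, SE 0.46, adjusted p = 0.738). TNFRSF6B, the soluble decoy of FAS ligand, was listed at 0 reads in every library. It lies inside the readthrough gene RTEL1-TNFRSF6B on the same strand, which had 118 to 195 reads with shNC and 88 to 136 reads with shNUF2.

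Per gene length, the 5 members with the highest mean over all libraries were TNFRSF10B, TNFRSF12A, TNFRSF10D, TNFRSF1A and TNFRSF21, all of them receptors. They held 71.7% ± 0.407 of the members' reads with shNC and 64.7% ± 0.255 with shNUF2 (SD, n = 3 each). In the order of levels in FPKM, TNFRSF10D went from below TNFRSF1A and TNFRSF21 to above both. TNFSF9 went from below LTBR and TNFRSF10A to above them and, at 27.5 FPKM, above TNFRSF1A at 24.4 FPKM.

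**Figure D4:**
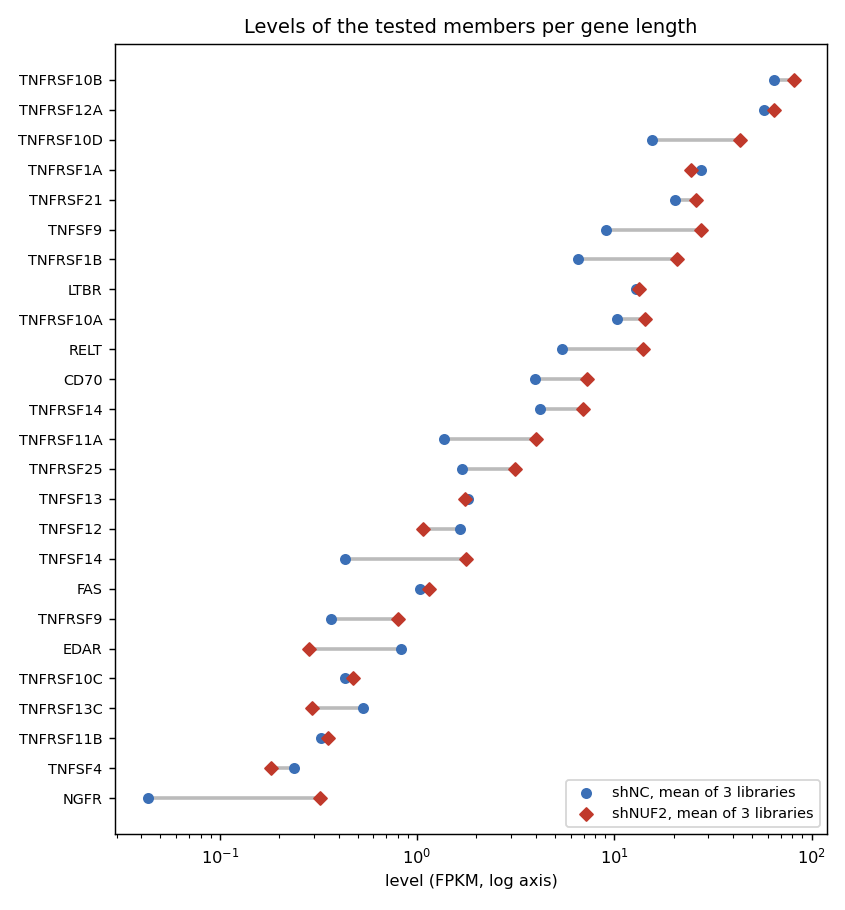
Mean level of each tested member in FPKM (horizontal log axis) with shNC (blue circles) and shNUF2 (red diamonds), 3 libraries each, ordered by the mean over all libraries. Levels span from 0.0431 FPKM for NGFR with shNC to 81.9 FPKM for TNFRSF10B with shNUF2.

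The remaining 23 members had too few reads to be tested, with at most 21 reads in any library. Of these, 12 had at most 3 reads in every library: LTA, CD40LG, TNFSF8, TNFSF11, TNFSF18, TNFSF12-TNFSF13, TNFRSF6B, TNFRSF8, TNFRSF13B, TNFRSF17, TNFRSF18 and CD27. For 9 of them expression was not detectable at this depth above a floor of 3 reads. TNFRSF6B, TNFSF12-TNFSF13 and CD27 overlap other listed genes on the same strand, so their few or absent reads do not show this. The other 11 are described by their reads, by the ratio of shNUF2 to shNC reads per counted read with its 95% exact interval, which covers counting error only and not the spread between libraries (no ratio is given for FASLG), and by the adjusted p of the same edgeR fit without a filter on low counts.

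TNF itself had 0, 3 and 0 reads (shNC) against 9, 7 and 5 (shNUF2), a ratio of 7.79 with an interval of 2.33 to 40.8 (adjusted p without the filter = 0.0121). TNFSF15, also named TL1A and the ligand of TNFRSF25, had 0, 1 and 0 against 11, 6 and 11 reads, a ratio of 31.1 with an interval of 5.15 to 1270 (adjusted p without the filter = 0.000216). In both genes each shNUF2 library had more reads than any shNC library. CD40, the receptor of CD40 ligand on antigen-presenting cells, had 2, 0 and 0 reads against 21, 1 and 13 reads, a ratio of 19.5 with an interval of 5 to 167 (adjusted p without the filter = 9.32e-05). Here shNUF2 replicate 2 had fewer reads than shNC replicate 1, so the groups overlapped despite the small p.

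TNFSF10, which encodes TRAIL, had 1, 0 and 0 reads against 2, 5 and 3 reads, a ratio of 11.1 with an interval of 1.58 to 483 (adjusted p without the filter = 0.0678), so the ligand of the TRAIL receptors was near the limit of detection in both groups. EDA2R, the receptor of an ectodysplasin isoform, had 3, 0 and 2 reads against 5, 10 and 5 reads, a ratio of 4.45 with an interval of 1.62 to 15.2 (adjusted p without the filter = 0.0485). The ligand gene EDA, with 7, 12 and 5 against 3, 7 and 7 reads, TNFSF13B (BAFF), with 12, 9 and 5 against 13, 5 and 7 reads, and LTB, with 3, 2 and 3 against 3, 5 and 2 reads, had overlapping groups. Their ratios were 0.788 (interval 0.397 to 1.53), 1.07 (0.593 to 1.93) and 1.39 (0.494 to 4.05). TNFRSF4 (OX40) had 2, 0 and 2 against 8, 3 and 3 reads, a ratio of 3.89 with an interval of 1.22 to 16.2, and TNFRSF19 had 0, 2 and 0 against 0, 2 and 8 reads, a ratio of 5.56 with an interval of 1.19 to 52.2. FASLG had reads in shNUF2 replicate 2 only, where there were 4. The adjusted p without the filter was 0.129 or more for each of these 6 genes.

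Several ligands and receptors known to bind each other were therefore unequal in level. TNFRSF1A and TNFRSF1B were at 24.4 and 20.7 FPKM in the knockdown cells while TNF was at most 0.389 FPKM in any library, and the TRAIL receptors summed to 140 FPKM while TNFSF10 was at most 0.111 FPKM. For CD137 the ligand was the abundant side.

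Genes that act beside or below these receptors were read from 4 lists. Of 25 adaptors, kinases and ubiquitin enzymes of the receptor complexes, 24 were tested, and 10 rose, 8 fell and 6 did not pass an adjusted p under 0.05, which is 41.7% and 33.3% against 33.9% and 33.8% of all genes. The median log2 fold change was -0.09, and that of all tested genes was -0.01. The largest rises were in TRAF1, an adaptor that binds TNFRSF1B and TNFRSF9 (1.94, SE 0.10, adjusted p = 4.53e-15), with 176, 187 and 176 against 657, 570 and 580 reads, in BIRC3, which encodes cIAP2 (1.03, SE 0.05, adjusted p = 1.88e-15), and in TRAF6 (0.81, SE 0.08, adjusted p = 1.35e-09). The largest falls were in IKBKB, which encodes the kinase IKK beta (-0.55, SE 0.06, adjusted p = 2.49e-08), in TRAF2 (-0.54, SE 0.05, adjusted p = 2.16e-10) and in MAP3K14, which encodes the NF-kB-inducing kinase NIK (-0.40, SE 0.07, adjusted p = 1.54e-05). TRAF1 and TRAF2, which form mixed trimers, thus moved in opposite directions, and TRAF2 remained the more abundant, at 23.5 ± 0.323 FPKM against 9.63 ± 1.07 FPKM for TRAF1 in the shNUF2 group (SD, n = 3 each).

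Of 10 effectors and regulators of receptor-mediated cell death, 9 were tested, 4 rose and 5 did not pass, with a median log2 fold change of 0.06. The rises were 44.4% of the tested genes of the list, against 33.9% of all genes. Those that rose included DIABLO, an antagonist of inhibitor of apoptosis proteins (0.74, SE 0.24, adjusted p = 0.00926), MLKL, the pore-forming protein of necroptosis (0.68, SE 0.05, adjusted p = 1.08e-12), and the initiator caspase CASP10 (0.34, SE 0.13, adjusted p = 0.0244). DIABLO was low, with 37, 40 and 33 reads (shNC) against 55, 50 and 57 (shNUF2), or means of 0.341 and 0.554 FPKM. Without shNC replicate 3, DIABLO and CASP10 did not pass and the list had 2 rises, and CASP10 did not pass without shNUF2 replicate 3 either. CASP8, the main initiator caspase of death receptors, was at 6.48 ± 0.115 and 5.97 ± 0.264 FPKM (SD, n = 3 each; log2 fold change -0.08, adjusted p = 0.284). RIPK3, the kinase that activates MLKL, was listed at 0 reads in every library.

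All 6 genes of ligand and receptor shedding or processing were tested, and 3 rose and 1 fell, with a median log2 fold change of 0.14. These counts are 50% and 16.7% of only 6 genes, against 33.9% and 33.8% of all genes. RHBDF1, which encodes a trafficking partner of ADAM17, rose (0.70, SE 0.07, adjusted p = 4.58e-09), as did the sheddase ADAM17 itself (0.30, SE 0.07, adjusted p = 0.000229) and FRMD8 (0.30, SE 0.05, adjusted p = 5.66e-06). The proprotein convertase FURIN fell (-0.27, SE 0.05, adjusted p = 8.19e-06). RHBDF2, with a log2 fold change of -0.28 (SE 0.13, adjusted p = 0.0657), passed as a second fall without shNC replicate 3 or without shNUF2 replicate 2.

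Of 18 genes known to be induced by TNF through NF-kB, 16 were tested, 15 rose and 1 fell, or 93.8% and 6.25% against 33.9% and 33.8% of all genes, with a median log2 fold change of 2.08. The fold threshold was passed by 10 genes in the upward direction and by 1 downward, or 62.5% and 6.25% against 9.41% and 4.16% of all genes. This list was chosen with earlier results of these data known, so these shares describe it and are not a test. CXCL8, which encodes the neutrophil chemokine interleukin 8, rose from 96, 98 and 91 reads to 5939, 5224 and 5380 reads (6.05, SE 0.09, adjusted p = 7.87e-27). The chemokine gene CCL20 (5.08, SE 0.17, adjusted p = 4.59e-19) and the cytokine gene IL6 (3.75, SE 0.12, adjusted p = 4.29e-20) followed, and TNFAIP2 fell by 1.02 on the log2 scale (SE 0.04, adjusted p = 2.32e-17). The untested genes of this list were VCAM1, with at most 3 reads, and CCL2, with 0 reads in each shNC library and 8, 5 and 3 in the shNUF2 libraries. TNF itself had at most 9 reads in any library.

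**Figure D5:**
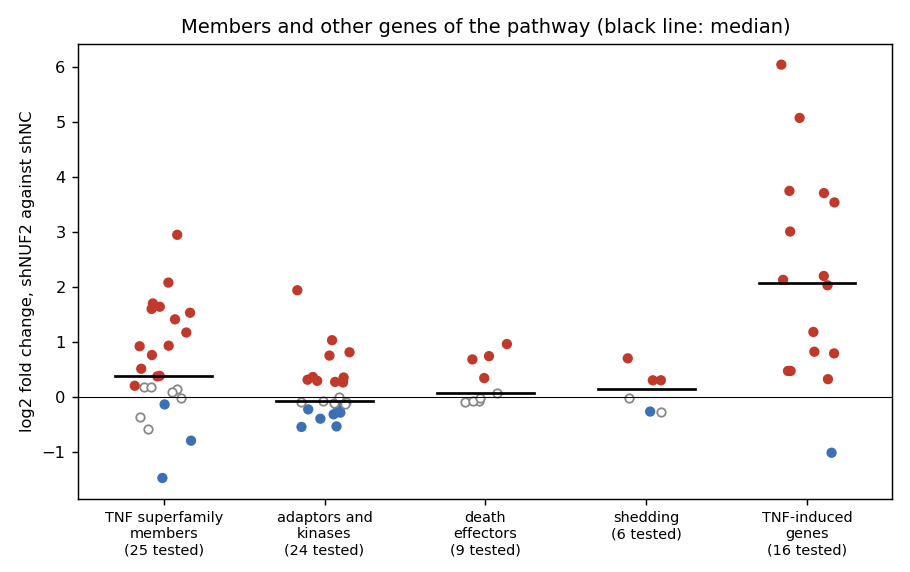
Log2 fold change (shNUF2 against shNC, vertical axis) of each tested gene among the TNF superfamily members and the 4 lists, where filled points passed an adjusted p under 0.05 (red higher, blue lower), open points did not, and black lines mark medians. The medians are 0.38, -0.09, 0.06, 0.14 and 2.08 from left to right.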

How the data were processed

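RNA from 6 OVCAR3 libraries (3 shNC, 3 shNUF2) had been prepared with a stranded Illumina mRNA kit. The submitters' processing notes name cutadapt, HISAT, HTSeq and the build GRCh38.p13, and their versions, the annotation release and the strand setting are not given in the sources used here. The authors deposited raw read counts per gene and FPKM values, which equal the counts divided by gene length and total counted reads (largest relative deviation 2.71e-07). Counts were tested with edgeR 4.0.16 in R 4.3.3 (limma 3.58.1) by the quasi-likelihood test over all 6 libraries, with filterByExpr, TMM and no covariate. The SE of a log2 fold change was its size over the square root of F, and p-values were adjusted by Benjamini-Hochberg over 12874 genes. The study's fold thresholds of 1 and -1 were read on the log2 scale. FPKM values were used for levels and shares only. For single ratios no test is given, since an exact permutation test of 3 against 3 cannot go below p = 0.10.

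Every tested member is named; members past the fold threshold, and the 5 with the highest mean FPKM, are given with reads in every library; from each list up to 3 rises and 3 falls are named, except that 1 gene is not reported here. Untested members over 3 reads are named, and others beside these were chosen after their values were seen. The members and lists were chosen with earlier results of these data known. Replicates differed by more than sampling noise, so no library was counted as a duplicate. The fit was tested on simulated data. Alternatives were DESeq2 1.42.0, other library scalings, other count filters, a replicate block and leaving out each library. Figures and counting intervals were made with Python 3.11.15, numpy 2.4.6, scipy 1.17.1, pandas 2.3.3 and matplotlib 3.10.9. Promoter windows came from RefSeq (GRCh38.p14).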

Additional observations from a re-analysis of the deposited data

How the results depend on the processing

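Of 321 log2 fold changes of tested members under the alternatives, 311 stayed on their side of an adjusted p of 0.05, 8 lost the call (TNFRSF1A and TNFRSF13C), 2 gained it (TNFSF12, also with library totals only, adjusted p = 0.0463) and 0 changed direction with a call in either fit. Among members without a call, 6 values of TNFSF13, TNFRSF10C and TNFRSF11B had the other sign at 2 decimals. TNFRSF11B was also at -0.00 without shNUF2 replicate 1. The 8 members past the fold threshold upward became 13 with no filter on low counts, by CD40, EDA2R, TNF, TNFSF10 and TNFSF15, and 7 with a mean of at least 1 CPM, where NGFR was not tested, and ranged from 8 to 11 when each library was left out. The count reached 11 without shNC replicate 3 or without shNUF2 replicate 2. Over the fits without 1 library each, the cell death list had 2 to 4 rises and the shedding list 1 to 2 falls, and the latter had 2 falls with library totals only and 2 with no filter, from RHBDF2. With the replicate block, 8 members were higher and 1 lower by the fold rule, and 15 rose and 2 fell by adjusted p, TNFRSF13C being lost. Deviations of libraries with the same number correlated at 0.02, 0.00 and -0.03, so the numbers were not taken to pair libraries. The cause of these changes was not tested. Scaling by library totals moved the median of all genes to -0.05. Members under 20 reads are limited by depth.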
